A study of Homo sapiens with 6 samples.

Results

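SOX2, on chromosome 3 (hg19), was examined as a place of MYC binding in ONS76 cells, a line derived from a human medulloblastoma. The members are the MYC peaks whose summit, the position with the most sequenced fragments, fell between positions 181429000 and 181433000. This window holds the coding part of SOX2, from 181430149 to 181431102. It held 4 of 59006 peaks, of which 2 came from the 24899 of replicate 1, 1 from the 16809 of replicate 2 and 1 from the 17298 of replicate 3. The peaks were selected on the position of their summits, and the place itself was chosen by its measured control background, which was unusually high in all 3 lists. Its values are therefore given as a description, with no test.

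MYC binding was measured by chromatin immunoprecipitation and sequencing (ChIP-seq) in 3 libraries made with the MYC antibody Y69. The labels also list 3 libraries made with normal IgG, for which no peaks are analysed here. The labels give all 6 libraries the same engineered genotype, an inducible SOX2 construct, while their titles and the study's ChIP methods name the cells only as ONS76, so it is not settled that the cells used carried it. Per the study's methods such a construct is switched on by doxycycline, and the MYC ChIP-seq was not done with elevated SOX2. Whether the line is 1 clone, how many copies of a construct it would have, and whether these hold the human coding sequence are details not stated in the labels or methods. Reads from a human SOX2 coding sequence in a construct and from the chromosomal gene would map to the same place and cannot be told apart, and no library here is labelled as lacking the construct. Per the study's methods, 3 independent ChIPs with the same antibody and chromatin batch were pooled. Whether each library is 1 such pool, and whether the libraries share a batch, is not stated. Separate cultures are not stated for the replicates, so their SD is a spread between libraries that may be technical.

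SOX2 is a transcription factor of the SOX family, which bind DNA through an HMG box. It keeps embryonic and neural stem cells in an undifferentiated state, and in medulloblastoma it marks slowly dividing cells. The gene has no introns and lies inside the longer noncoding transcript SOX2-OT. MYC binds DNA as a dimer with MAX, with a preference for the E-box, most of all the letters CACGTG, and mostly near the starts of active genes.

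The SOX2 coding sequence, taken by name from GENCODE v44 (hg38), is 954 bases long in 1 exon, as long as the coding part in hg19. The stretch between the lowest and the highest of the 3 summits, coding positions 425 to 559, is shown because the MYC signal peaked within it. Coding positions are counted from 1 at the first base of the start codon, and the coding sequence was taken to be the same in both builds. Capitals mark the letters CANNTG, the general form of the E-box, which reads the same on both strands.

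SOX2 coding positions 425 to 559: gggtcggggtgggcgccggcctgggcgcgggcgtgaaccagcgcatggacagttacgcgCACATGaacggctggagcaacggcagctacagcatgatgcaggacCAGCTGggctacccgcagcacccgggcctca

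The coding sequence held 0 copies of CACGTG, which 14.8% of 13112 genes held in their first 954 coding bases. It held 7 copies of CANNTG, some of them overlapping, and 31.4% of the genes held as many or more (median 5). The copy of CACATG at coding position 484 lay 13, 59 and 75 bases from the summits of replicates 1, 2 and 3. It was the nearest copy of CANNTG in replicates 1 and 2, while in replicate 3 CAGATG at position 577 (18 bases) and CAGCTG at position 529 (30 bases) were nearer. The coding sequence was rich in G and C, at 65.8% against a median of 52.6% over the same genes. A match of letters describes the sequence only.

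Each MYC library had 1 peak over the coding part of SOX2, and in all 3 the whole peak lay inside it. The peak of replicate 1 ran from 181430202 to 181431098. The peak of replicate 2 ran from 181430196 to 181431098, and that of replicate 3 from 181430228 to 181431081. The widths of 897 bp, 903 bp and 854 bp (mean 885 ± 26.7, SD, n = 3) covered 94.0%, 94.7% and 89.5% of the coding part. Put as distances, the peaks began 53, 47 and 79 bases after the coding start and ended 4, 4 and 21 bases before the coding end. The peaks thus traced the coding part and left out both untranslated ends of the messenger RNA, which has 436 bases before and 1122 bases after the coding part in the hg38 annotation.

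**Figure D1:**
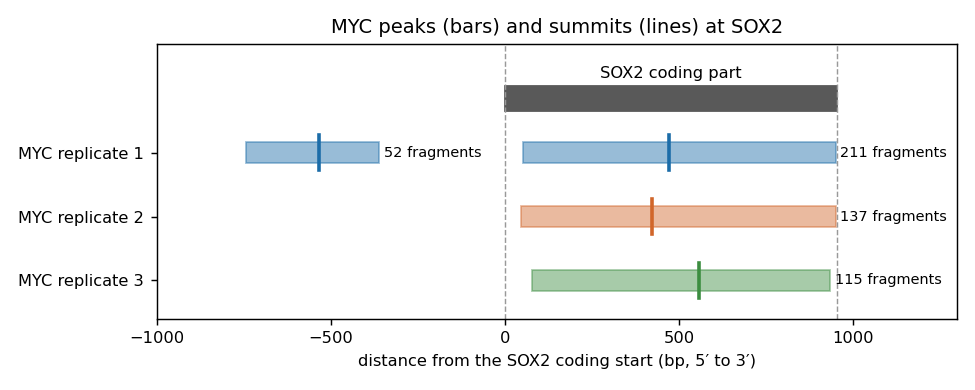
Position of the 4 MYC peaks at SOX2, with distance from the coding start in bp on the x axis and the 3 MYC replicates on the y axis. Bars are peaks, vertical lines are summits, and the grey box is the coding part. The coding peaks of all 3 replicates stop within 21 bases of the coding end, and an upstream peak with 52 fragments is seen in replicate 1.

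The edges of the coding peak differed little between the replicates, while its summit moved. The 3 starts lay within 32 bp and the 3 ends within 17 bp. At 11547 places with 1 peak in each replicate, SOX2 included, the median range was 113 bp for starts and 115 bp for ends. The range was larger than at SOX2 at 92.7% of these places for the start and at 97.9% for the end. Start and end both varied as little as at SOX2, or less, at 23 of the 11546 other places (0.199%).

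The summits, in contrast, fell at coding positions 471, 425 and 559, in codons 157, 142 and 187, a range of 134 bp. The median range was 58 bp over all these places. At 162 places whose fragment level, relative to depth, was within 10% of that of SOX2, it was 23 bp, and 3.09% of them had a larger range than SOX2. At the same 162 places the median range was 104 bp for starts and 99.5 bp for ends. Start and end both varied as little as at SOX2, or less, at 1 of these 162 (0.617%). Set beside places of like strength, SOX2 thus had narrow ranges at the edges and a wide range at the summit.

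The second member in replicate 1 was a peak from 181429406 to 181429786, 381 bp wide, that began 743 and ended 363 bases before the coding start. Its summit was at 181429614, 1005 bp from the coding summit, and 415 bp separated the peaks. If the 436 untranslated bases of the hg38 annotation hold for hg19 too, this peak reached from 307 bases before to 73 bases after the start of the SOX2 transcript, with its summit 99 bases before it. The lists of replicates 2 and 3 had no peak there, so the upstream peak does not meet the study's rule of at least 2 replicates.

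The 250 bases before the transcript start, from RefSeq (GRCh38.p14), are shown because the upstream summit would fall among them, with CANNTG again in capitals.

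SOX2 promoter: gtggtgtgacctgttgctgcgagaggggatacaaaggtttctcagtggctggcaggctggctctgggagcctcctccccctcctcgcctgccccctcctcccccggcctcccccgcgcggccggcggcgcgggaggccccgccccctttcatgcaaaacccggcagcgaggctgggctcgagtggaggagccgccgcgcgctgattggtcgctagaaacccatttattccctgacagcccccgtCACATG

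Together with the 50 bases that follow in the RefSeq table, this window held 0 copies of CACGTG, a motif that 7.43% of 27305 promoters of the same length held. It held 1 copy of CANNTG, which 68.9% of the promoters had, ending at the last base before the transcript start.

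The SOX2 coding peak had many fragments and a low fold enrichment. Fold enrichment divides the MYC fragments at the summit by the local background, after adding 1 to each. The summits held 211, 137 and 115 fragments in replicates 1, 2 and 3. By this number SOX2 ranked 260, 207 and 283 in its lists, above 98.9%, 98.7% and 98.3% of all peaks. Fold enrichment was 3.44, 3.97 and 3.91 (mean 3.77 ± 0.288, SD, n = 3), above 32.3%, 37.5% and 28.4% of all peaks. The same peaks were therefore near the top of each list by fragments and in the lower part by fold.

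The local background is the denominator that separates these ranks. It was recovered from the fold enrichment and p-value of each peak, and it is the highest of a genome-wide even level and of control levels in windows around the summit. For replicates 1, 2 and 3 the even level was 7.79, 5.84 and 4.76 fragments. At the SOX2 coding summit the background was 60.6, 33.8 and 28.7 fragments, or 7.78, 5.78 and 6.03 times the even level (mean 6.53 ± 1.09, SD, n = 3). A background at least this high was found at 0.00803%, 0.0238% and 0.0116% of the peaks of the 3 lists, SOX2 included. Because the place was chosen for this value, its rank is a description.

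In each replicate the background at SOX2 came from the narrowest window, as wide as the mean fragment (252 bp, 233 bp and 229.7 bp). It corresponded to 88, 56 and 52 control counts, where an even spread would give 11.3, 9.68 and 8.62. A control count is a fragment, or a fragment end if the peak caller was run in its paired-end mode, a setting that the methods do not state. The study's reads were paired-end. The recovered window widths of 252.28, 233.33 and 229.69 bp were not whole numbers, as a mean over read pairs can be. Fragment ends are therefore the likelier reading. The exact Poisson 95% intervals of the relative background were 6.24 to 9.59, 4.37 to 7.51 and 4.50 to 7.91. They overlap, and whether the replicates differ was not tested. The lowest bound of any of them was 4.37 times the even level, a description only, since the place was chosen for a high background. These intervals cover counting error only, and they treat control counts as independent. If the counts are fragment ends, both ends of a fragment can be counted and are not independent. The intervals would then be too narrow, as would the others given here that use control counts.

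The MYC level at the coding summit is given beside the control level. An excess of MYC over the local background is what the peak caller requires of every peak, so its presence here is no finding, and the ratio uses the background for which the place was chosen. Relative to the even level, the coding summit held 27.1, 23.5 and 24.2 times as many MYC fragments (mean 24.9 ± 1.93, SD, n = 3). With nothing added, MYC fragments over control were 3.48, 4.06 and 4.01. When the counting error of the control was included, the exact Clopper-Pearson 95% intervals of these ratios were 2.70 to 4.52, 2.95 to 5.64 and 2.87 to 5.68. The deposited −log10 p-values of 50.96, 40.4 and 33.8 treat the background as known without error. Against the even level in place of the local background, the same fragments would give a fold of 24.1, 20.2 and 20.1.

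**Figure D2:**
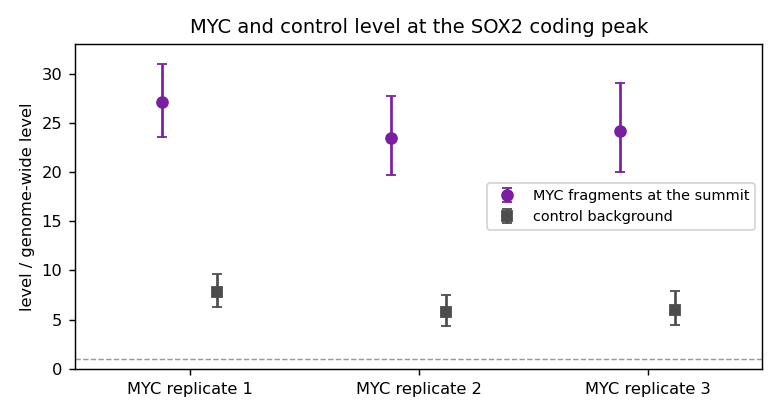
MYC fragments at the summit (circles) and control background (squares) of the SOX2 coding peak in the 3 MYC replicates, each divided by the genome-wide even level of its list, which the dashed line marks at 1. Bars are exact Poisson 95% intervals of the counts. MYC lies between 23.5 and 27.1 and the control between 5.78 and 7.78 times the even level.

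Peaks with about as many fragments as SOX2 had a higher fold and a lower background. In replicate 1, 191 other peaks had a fragment number within 10% of that of SOX2, with a median fold of 17.3 and a median relative background of 1.41. The medians were 16.7 and 1.23 over 151 peaks in replicate 2, and 17.3 and 1.18 over 206 peaks in replicate 3. The lowest folds among them were 5.32, 3.99 and 5.66, against 3.44, 3.97 and 3.91 at SOX2. With the fragment number held alike, the place with the highest background has the lowest fold by construction, so this order follows from how SOX2 was chosen. In width SOX2 was not apart from them. Their median width was 1122 bp, 922 bp and 874 bp, and 71.2%, 52.3% and 55.3% of them were wider than SOX2.

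**Figure D3:**
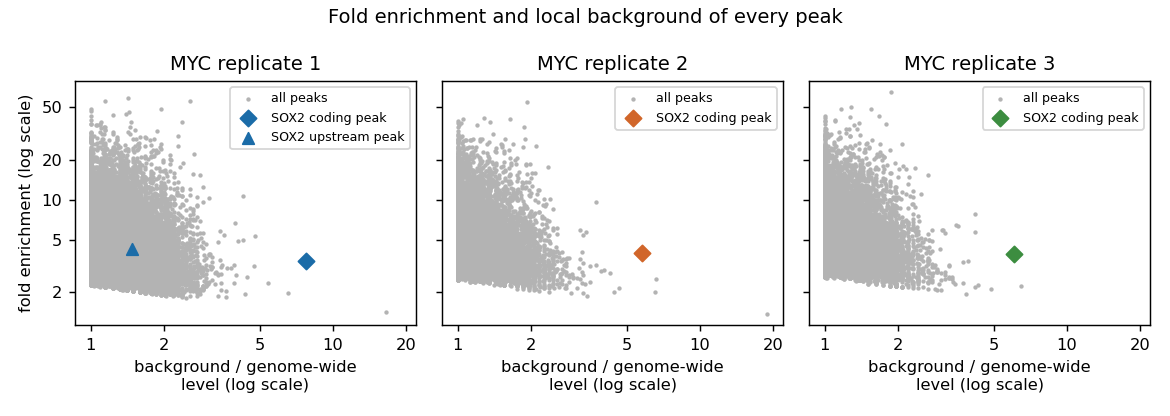
Fold enrichment (y axis, log scale) against local background as a multiple of the genome-wide level (x axis, log scale) for all peaks of each MYC replicate, with the SOX2 peaks in colour. The coding peak lies far to the right of nearly all other peaks, at a background of 7.78, 5.78 and 6.03 and a fold of 3.44, 3.97 and 3.91, while the upstream peak of replicate 1 lies inside the cloud.

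The high control level fell off over a short distance. At the upstream peak of replicate 1 the background was 11.6 fragments, 1.49 times the even level, against 7.78 at the coding summit 1005 bp away, a 5.23-fold difference. The value at the upstream peak came from the 10000 bp window, which extends past the coding part on both sides and held 667 control counts, or 66.7 per kb (exact Poisson 95% interval of the relative level 1.38 to 1.61). The 252 bp window at the coding summit held 348.8 per kb, against 44.8 per kb for an even spread. This window makes up 2.52% of the 10000 bp and held a number of counts equal to 13.2% of the 667.

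Since the background is the highest of all windows, the value at the upstream peak also bounds the narrower ones. Its 252 bp window held at most 16 control counts and its 1000 bp window at most 66. The 1000 bp window ended 35 bases before the coding start, so none of the coding part was in it. The upstream peak, which fell outside the stretch of high control, had 52 fragments, 6.68 times the even level, and a fold of 4.21, above 50.8% of the peaks of its list.

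Downstream, the nearest peak was 1 in replicate 3 from 181437258 to 181437567, with its summit 6345 bp past the coding end and 16 fragments. It was the closest peak outside the window that defines the members. Its background of 1.03 times the even level came from a 10000 bp window with 385 counts that begins 1345 bp past the coding end. The control there was therefore close to even, against 6.03 at the coding summit of the same replicate. On the other side the nearest peak outside was 80.1 kb before the coding start, in replicate 1, with a relative background of 1.15.

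The other peaks within 1 Mb of SOX2, between positions 180430000 and 182430000, had an ordinary background. Replicates 1, 2 and 3 had 16, 7 and 6 of them, at 19 places. Their median relative background was 1.12, 1.08 and 1.02, and their highest was 1.77, 1.14 and 1.20, below SOX2 in each list. The ratio of SOX2 to the median of these neighbours was 6.98, 5.33 and 5.90 (mean 6.07 ± 0.835, SD, n = 3). The highest neighbour, from 181604521 to 181604792 in replicate 1, had 20 control counts in the narrowest window, against 88 at SOX2.

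**Figure D4:**
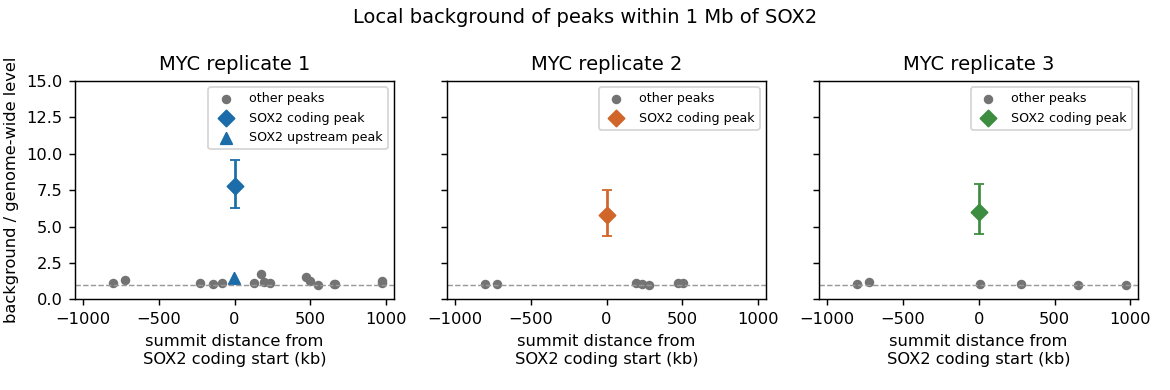
Local background as a multiple of the genome-wide level (y axis) for all peaks within 1 Mb of SOX2, by distance of the summit from the coding start in kb (x axis), in the 3 MYC replicates. Diamonds are the SOX2 coding peak with exact Poisson 95% intervals, the triangle is the upstream peak, and grey points are other peaks, of which the highest is 1.77.

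In fold the SOX2 coding peak was near the median of its neighbours within 1 Mb, and in fragments it was not. The median fold of the neighbours was 4.05, 3.72 and 3.90, and the ratio of SOX2 to it was 0.849, 1.07 and 1.00 (mean 0.973 ± 0.112, SD, n = 3). SOX2 was thus lower in replicate 1, a little higher in replicate 2 and about level in replicate 3, and the mean differed from 1 by less than the spread between replicates. Against the wider set of peaks within 5 Mb, the ratio was below 1 in each replicate, at 0.846, 0.831 and 0.842. The neighbours within 1 Mb had a median of 39, 27 and 21.5 fragments, and their highest numbers were 55, 32 and 31. SOX2 had 5.41, 5.07 and 5.35 times the median (mean 5.28 ± 0.179, SD, n = 3).

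A peak in all 3 replicates, as at SOX2, was common over the genome, at 12499 of 27801 places. Of the 19 other places within 1 Mb, 2 were found in 3 replicates, 6 in 2 and 11 in 1. The first shared place was around 800 kb before the coding start, with a fold of 4.84, 3.68 and 4.15, and the second around 723 kb before it, with a fold of 4.15, 4.13 and 4.77. Relative background at these 2 places was between 1.06 and 1.33, so the places shared by all replicates did not share the control level of SOX2. The genes at these positions are not named, because the annotation used here is of hg38.

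SOX2 was chosen for a high background in all 3 lists, so its rank here is a description. Among the 12499 places with a peak in all 3 replicates, SOX2 had the highest background by its lowest replicate. The next was on chromosome 1 from 16939392 to 16940655, with 4.78, 5.58 and 4.17 times the even level (mean 4.84 ± 0.704, SD, n = 3) and a fold of 5.32, 3.99 and 5.66. In replicate 2 it was close to SOX2, at 5.58 against 5.78. A nearby place on chromosome 1, from 16947445 to 16947846, followed with a mean of 4.30 ± 0.411 (SD, n = 3). Another place on chromosome 1, from 144009736 to 144010477, had a mean of 4.04 ± 0.280 (SD, n = 3), and a place on chromosome 5 from 840244 to 840887 had 4.19 ± 0.604 (SD, n = 3). Their mean fold ranged from 2.68 to 9.33, so a high background went with both low and high fold.

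A higher background than at the SOX2 coding peak was seen at 1, 3 and 1 peaks of replicates 1, 2 and 3. The highest in replicate 1 was at 93970945 to 93971349 of chromosome 11, with 16.5 times the even level. The highest in replicate 2 was at 41399988 to 41400371 of chromosome 17, with 19.0 times. Both were called in a single library, with a fold of 1.42 and 1.37. The remaining ones were on chromosome 2, between 6.49 and 6.61, at places called in 2 replicates. None of these 5 peaks was at a place found in all 3 replicates, as SOX2 was. That contrast follows from the choice of SOX2 for a high background in all 3 lists.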

How the data were processed

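The authors aligned the reads to hg19 with Bowtie2 and called peaks per MYC library with MACS2 (q-value 0.05). Which control MACS2 was given, how duplicates were treated and which versions ran is not given in the sources. The deposited lists give, per peak, a fold enrichment (a ratio), a −log10 p-value, a −log10 q-value, a score (10 times the −log10 q-value, cut to whole numbers) and positions, not scaled between replicates and with no read totals.

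From fold and −log10 p, the whole number of summit fragments and the background were solved (tolerance 0.001), which succeeded for 100% of peaks. The lowest background of a list was taken as its even level. All higher ones fell on steps of whole control counts in windows of the fragment length, 1000 bp or 10000 bp, against 0.763%, 0.759% and 0.77% by chance. In 3 simulated lists of 5000 peaks, 100% of fragment numbers and 95.5%, 98.9% and 99.9% of control counts in the narrowest window were recovered. The simulated lists were made with the same formulas and window steps. They check the solving only, not whether the real lists arose in this way. Places are peaks that overlap by at least 1 bp.

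The place and the measures were chosen with earlier results of these data known. The rule for named items allowed SOX2, all other peaks within 1 Mb and the 5 places in all 3 lists with the highest background by their lowest replicate. Peaks above SOX2 in 1 list, the edge ranges and the peaks of similar fragment number were added after the values were seen. Replicate 1 had 2 peaks in the window where 1 was planned for, so the coding one was used, with the mean of both as an alternative. No test was run, and means are ± SD. The genome and annotation given are of hg38, so no position was carried between builds. Python 3.11.15, SciPy 1.17.1 and pandas 2.3.3 were used.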

Additional observations from a re-analysis of the deposited data

How the results depend on the processing

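Of 42 alternatives over 7 results, 36 moved the value by no more than the SD between replicates. Leaving out 1 replicate cannot move a mean of 3 values by more than this SD. Such alternatives are among the 36 by construction and do not measure stability. The 6 that moved were all of other kinds. The relative background of SOX2 stayed between 5.48 and 6.91 in its 5 alternatives, and its ratio to the neighbours between 5.61 and 6.44 in 7. The mean fold of 3.77 became 21.5 over the genome-wide level, and the fold ratio to the neighbours then rose from 0.973 to 5.13, because by construction the local background no longer enters. The fold ratio was 0.840 with neighbours within 5 Mb and 0.818 with the whole of chromosome 3, and the cause was not tested. With nothing added before dividing it was 0.888. In each of these 3 alternatives it was below 1 in every replicate. Without replicate 1 the fold ratio to the neighbours within 1 Mb was 1.04, above 1. Averaging both peaks of replicate 1 lowered the share inside the coding part from 100% to 83.3% and the mean width from 885 bp to 799 bp, since the upstream peak has no coding base. The folds over the genome-wide level and the averages of both peaks for fold and background were chosen after seeing the data. No paired analysis was possible because no result comes from a test between MYC and IgG, and it is not stated which library was the control behind each list. The control level at SOX2 rests on 88, 56 and 52 counts, and depth limits its precision. Where no peak was called, the lists give no control level.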
